A study of Mus musculus with 34 samples.

Results

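The transcriptome of the infarcted mouse left ventricle (LV) 48 h after coronary ligation was compared with that of sham-operated LV in 6 RNA-seq libraries. These were 4 hearts that received Luc modRNA at the time of infarction and 2 sham hearts, out of 24 libraries in the table that holds them and 34 libraries in the series. The rule took every library labelled Luc modRNA at 48 h or sham in that table and no measured value, and it left 12555 of 17406 genes for testing, those whose mean over the 24 libraries reached 1 CPM (read count scaled to the size of its library).

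All mice were of the CFW strain, an outbred stock, and neither age nor sex was given in the sources used here. Myocardial infarction (MI) was induced by tying off the left anterior descending coronary artery for good, and modified mRNA (modRNA, a synthetic transcript delivered naked into the muscle) was injected around the infarct straight after ligation. Luc modRNA encodes firefly luciferase, a reporter with no mammalian counterpart. The sham hearts carried neither ligation nor injection, and their label gives a time of 4 h. The MI, the injection and the later collection can therefore not be told apart in this comparison. The titles of the sham and 4 h libraries share a run of S numbers, those of the 48 h libraries form another, and the 24 h titles carry none. The labels do not say what these numbers mean. A difference between sets of libraries can therefore not be told apart from the rest either. Healthy and infarcted myocardium were not separated in the labels. The labels do not say that libraries came from separate mice. Each was taken as 1 heart, and p-values measure only the spread between these libraries.

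After occlusion of a coronary artery, cardiomyocytes in the area at risk die and release their contents, which calls in neutrophils first and monocytes soon afterwards. Macrophages clear the debris, fibroblasts lay down a provisional and then a collagenous matrix, and surviving cardiomyocytes re-express genes of the fetal heart. The adult heart takes most of its energy from fatty acid oxidation, and its stressed myocytes turn down mitochondrial, ion channel and calcium-handling genes. The gene lists described here follow these roles.

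The 6 libraries held an estimated 17092946 to 19531165 reads each, and 1 read was worth 0.0277 to 0.0365 CPM. Listed values summed to 508204 to 641170 CPM in the Luc modRNA hearts and to 619752 to 628938 CPM in the sham hearts, so that the scaling of a library touches the split between rises and falls. Heart 1 had the largest total of the 4 infarcted hearts, and orders among hearts are of the deposited scale unless equal totals are named. Over the tested genes, Pearson correlations of log2(CPM + 1) were 0.945 to 0.984 among the Luc modRNA hearts, 0.971 between the sham hearts, and 0.886 to 0.945 across the groups. All fold changes below are differences of mean log2(CPM + 1) between the Luc modRNA and the sham hearts, from a limma model over the 24 libraries, with q for the Benjamini-Hochberg adjusted p over all tested genes. Because 1 is added to each CPM, these differences understate the change of low genes. A gene was said to rise or fall where q was under 0.05. The 4 Luc modRNA hearts are listed in the order 1 to 4 and the sham hearts in the order 1 and 2.

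Of the 12555 genes, 3774 (30.1%) differed between the groups, 1714 (13.7%) being higher and 2060 (16.4%) lower in the Luc modRNA hearts. These percentages are the background against which each gene list is read. The change was at least 2-fold (log2 of 1) for 811 of the genes that rose and 474 of those that fell, and it reached a log2 of 3 for 46 and 4. In 3510 of the 3774 genes the Luc modRNA and sham values did not overlap. Over all 12555 tested genes, every Luc modRNA value lay above both sham values in 2406 and below them in 2716. Separation was thus common among genes that were not called too. The share of calls that were rises was 45.4% on the deposited scale, 50.5% after median-ratio rescaling (1983 higher, 1940 lower) and 65.9% after each library was brought to the same total (2489 higher, 1286 lower). All 1714 rises were called under the 3 scalings, as were 1285 of the falls. A model of the 6 libraries alone called 1494 genes, fits with 1 library left out called 2150 (without sham 1) to 3998 (without Luc 4), and 1298 of the calls held in each of the 6 fits. In these fits the background of rises and of falls was 6.99% and 4.91% for the 6 libraries alone, 7.54% and 10.2% with array weights, 7.51% and 9.61% without sham 1, 11.8% and 12.0% without sham 2, 19.8% and 10.2% with equal totals, and 11.0% to 15.8% and 12.7% to 17.9% in the others. Where such a fit, array weights, a replicate block or another scaling moved a list's count of 4 or more rises or falls by over 1.5 times, that count is given beside it, to be read against the background of its own fit. Counts of 0 to 3, those written as none included, are of the deposited scale and all 24 libraries, and other fits gave from 0 to 6 genes for them.

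The genes with the largest rises, among called genes that averaged 10 CPM or more and did not overlap between groups, were of myeloid, matrix and cardiomyocyte stress origin in textbook terms. Slfn4 (chr11:83175186-83190217, plus strand, mm10), an interferon-inducible Schlafen gene of myeloid cells, was at 0.105 and 0.206 CPM in the sham hearts and at 95.4, 64.6, 148 and 63.02 CPM in the Luc modRNA hearts (log2 fold change 6.26, SE 0.69, limma q = 1.59e-06). That all 4 infarcted hearts lay above both sham hearts was a condition of the choice. Its neighbours in the Schlafen cluster are close relatives, and reads shared between them were divided by expectation-maximization if the study's methods apply to this table. Lcn2 (chr2:32384637-32387740, minus strand), which encodes the iron-siderophore binding protein lipocalin 2, was at 2.84 and 2.57 CPM in sham and at 244, 65.8, 270.4 and 89.6 CPM after MI (log2 fold change 5.26, SE 0.57, limma q = 1.55e-06), with hearts 1 and 3 highest. Arg1 (chr10:24915207-24927471, minus strand), the arginase of repair-type macrophages, had no read in either sham heart and 51.5, 54.3, 23.97 and 24.2 CPM in the infarcted hearts (limma q = 4.65e-07). Its level was at least 798.7-fold higher after MI when the 2 sham libraries together were set to the floor of 3 reads, which covers counting error only.

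Spp1 (chr5:104435111-104441054, plus strand), which encodes osteopontin, a secreted matrix and cytokine-like protein, was at 0.293 and 0.349 CPM in sham and 31.5, 148, 7.86 and 93.4 CPM in the Luc modRNA hearts (log2 fold change 5.09, SE 0.67, limma q = 1.15e-05). The infarcted hearts differed widely among themselves here, with heart 3 lowest and heart 2 highest. Nmrk2 (chr10:81198170-81202038, minus strand), the muscle nicotinamide riboside kinase of NAD synthesis, was at 6.39 and 4.06 CPM in sham and 290.4, 268, 305 and 111 CPM after MI (log2 fold change 5.22, SE 0.78, limma q = 4.64e-05). Timp1 (chrX:20870166-20874738, plus strand), a secreted inhibitor of matrix metalloproteinases, went from 1.73 and 1.46 CPM to 105, 96.5, 48.8 and 80.02 CPM (log2 fold change 4.95, SE 0.47, limma q = 3.8e-07). Both sham hearts were below every infarcted heart for each of these genes, which the choice of genes without overlap required. Lox, which cross-links collagen and elastin, Tnc, which encodes the matricellular protein tenascin C, and Hp, which encodes the haemoglobin scavenger haptoglobin, rose by 4.58, 4.499 and 4.46 on the log2 scale. The tenth was Chil3, a secreted chitinase-like protein of monocytes and alternatively activated macrophages, which is described with the myeloid genes.

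The largest falls among the same class of genes were smaller, and several were of muscle genes. Cenpf, 1 of the 10, is described with the mitosis genes. Lrtm1 (chr14:29018208-29033643, plus strand), which encodes a transmembrane protein of striated muscle, was at 519 and 485 CPM in sham and at 77.3, 77.6, 65.5 and 142 CPM after MI (log2 fold change -2.52, SE 0.22, limma q = 1.92e-07). Its lowest sham value was more than 3 times its highest infarct value. Fbxo32 (chr15:58175879-58214893, minus strand), the muscle ubiquitin ligase atrogin-1, was at 219.8 and 317 CPM in sham and 33.3, 59.9, 44.9 and 92.8 CPM after MI (log2 fold change -2.28, SE 0.28, limma q = 6.21e-06), and Mylk4, a myosin light chain kinase family gene, at 215 and 261 CPM and 67.8, 39.03, 41.8 and 48.2 CPM (log2 fold change -2.28, SE 0.24, limma q = 9.22e-07). Lsmem1, Gsg1l, Armc2 and Rbfox1, the last a splicing factor of muscle and brain, fell by 3.13, 2.45, 2.42 and 2.26 on the log2 scale, and heart 4 was the highest infarcted heart for each of them. Gm10052 and Gm6981, predicted loci whose reads may be shared with other genes, fell by 3.76 and 3.37. Gm6981 stood at 1.99, 50.3, 2.27 and 1.08 CPM in the Luc modRNA hearts against 56.1 and 59.7 CPM in sham, so heart 2 was near the sham level, and its call (limma q = 0.0498) was lost without any of Luc 1, Luc 3, Luc 4, sham 1 or sham 2, with median-ratio and equal-total rescaling, with the compared groups alone, with array weights and with a pseudocount of 0.1.

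**Figure D1:**
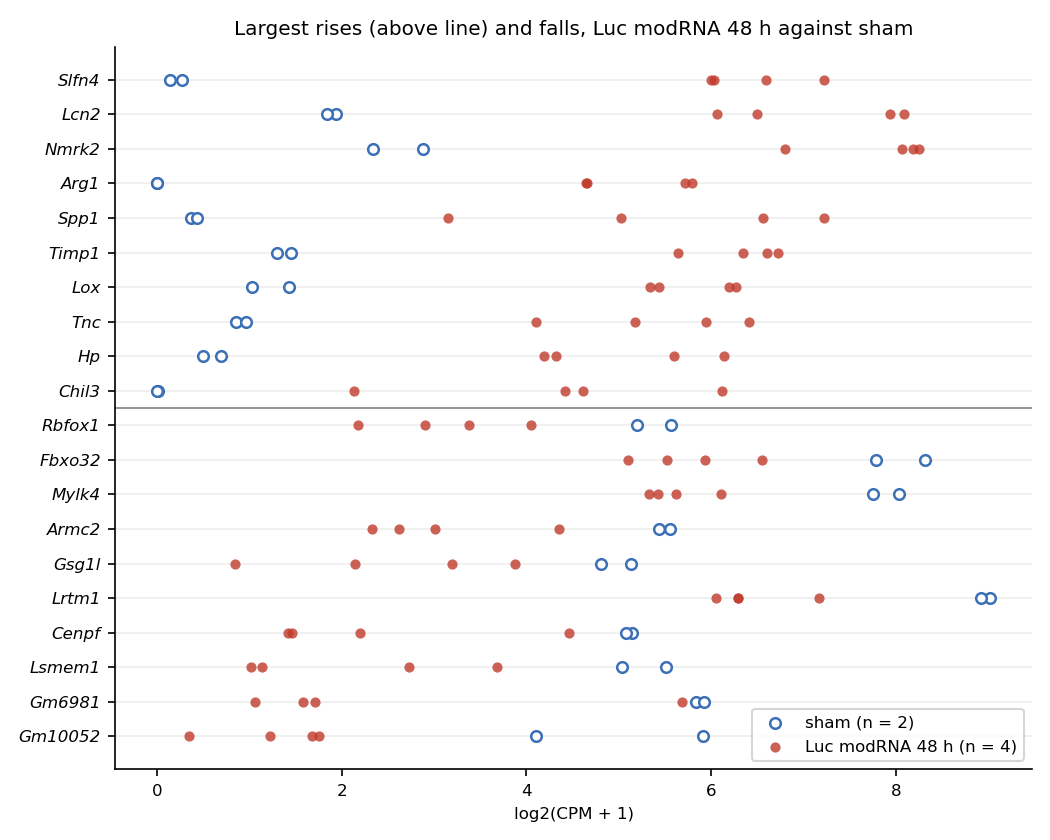
Levels of the 20 genes with the largest rises and falls, on a log2(CPM + 1) axis, with 1 open circle for each of the 2 sham hearts and 1 filled circle for each of the 4 Luc modRNA hearts at 48 h. The groups are separate for every gene because only genes without overlap were chosen, and for Gm6981 a single infarcted heart lies close to the sham hearts.

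Some marker genes of the heart's resident cell types differed between the groups, to be read against 13.7% of all genes higher and 16.4% lower. The falls among cardiomyocyte markers were near that background. Of 10 cardiomyocyte markers, 2 fell and none rose (median log2 fold change -0.39), and their summed level was 53819.9 to 55003 in the sham hearts and 37283 to 49959 in the Luc modRNA hearts. Myh6, the main adult ventricular myosin, was at 10381 and 18078 CPM in sham and 14747, 8953, 12348 and 9572 CPM in the infarcted hearts (limma q = 0.429). Those ranges overlapped, as did those of Tnnt2 (limma q = 0.6) and Tnni3 (limma q = 0.569), which encode troponin subunits. None of 8 endothelial markers passed the test, Pecam1, Cdh5 and Kdr having differences of -0.21, -0.13 and 0.13. Among 9 resting fibroblast markers Pdgfra rose (log2 fold change 0.66, SE 0.24, limma q = 0.0378) and Dpt fell (log2 fold change -0.79, SE 0.22, limma q = 0.01), while Tcf21 differed by -0.08. In bulk tissue, fewer cells of a type and less RNA per cell cannot be told apart, and this holds for every result that follows. Of 7 mural cell markers 1 rose and 2 fell, and their summed level was 843 to 917 CPM in sham and 426 to 585 CPM after MI. Rgs5 and Abcc9, genes of pericytes (and, for Abcc9, also of cardiomyocytes), fell by 1.04 and 1.103, Pdgfrb rose by 0.59, and Myh11 of smooth muscle differed by -0.53 (limma q = 0.258). With 1 library left out, q reached 0.05 for Dpt without sham 1, for Abcc9 without sham 2, and for Pdgfra and Pdgfrb without Luc 1, Luc 3, Luc 4 or sham 1.

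Haemoglobin genes and atrial genes, which report blood and neighbouring atrial tissue, were uneven between libraries. Hba-a1 was at 232 and 77.96 CPM in sham and 80.1, 54.8, 125 and 92.3 CPM after MI, so the first sham heart held the most. Of 7 erythroid genes, 3 fell, Hbb-bt among them (log2 fold change -1.51, SE 0.51, limma q = 0.0288), and its deposited values are identical to those of Hbb-b2, a neighbour noticed after the values were seen. In other fits 0 fell without sham 1 and with array weights, 1 without Luc 1 and with the compared groups alone, and 5 without sham 2. Myl7, the atrial light chain, was at 0.0326 and 0.0952 CPM in sham and 2.63, 1.49, 12.2 and 20.6 CPM after MI (log2 fold change 2.74, SE 0.74, limma q = 0.0072), and Myl4, another atrial and fetal light chain, at 0.848 and 1.396 and 7.59, 2.66, 25.3 and 32.9 CPM (log2 fold change 2.62, SE 0.81, limma q = 0.0177). Hearts 3 and 4 held the most of both. Sln, the atrial regulator of the calcium pump, showed the same 2 hearts highest, at 0.292, 0.204, 4.14 and 9.899 CPM (limma q = 0.165). Cd3e was at 2.41, 1.02, 18.3 and 0.581 CPM, with heart 3 apart from the rest, while Cd3g, Cd79a and Ms4a1 of lymphocytes and Flt3, Xcr1, Cd209a and Cpa3 of dendritic and mast cells were under the limit for testing. Alb, Sftpc and Msln, which mark liver, lung and mesothelium, were at or near 0, and Adipoq of fat was at 1.14 and 0.571 CPM in sham and 2.299, 0.935, 1.43 and 3.04 CPM after MI. The call was lost for Myl7 without sham 1, for Hbb-bt and Hbb-b2 without Luc 1 or sham 1, and for Myl4 without Luc 3, sham 1 or sham 2.

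Most tested genes of neutrophils rose. Of 9 tested neutrophil markers 8 were higher in the Luc modRNA hearts and none was lower, against 13.7% and 16.4% of all genes, and the median log2 fold change was 3.79. Ltf and Camp, at most at 0.553 and 0.146 CPM in these hearts, were under the limit for testing. Members near 0 in sham, Cxcr2 among them, could pass that limit through infarcted hearts alone. A fall could hardly be seen for such genes, here or in the lists that follow. Csf3r, the receptor of granulocyte colony-stimulating factor, was at 1.14 and 0.7298 CPM in sham and 40.4, 31.2, 22.9 and 35.9 CPM after MI (log2 fold change 4.098, SE 0.42, limma q = 8.94e-07). All infarcted hearts exceeded the sham hearts more than 10-fold. S100a8 and S100a9, the calprotectin subunits stored in neutrophil cytosol, stood at 113, 51.6, 41.1 and 19.9 CPM and 170.1, 75.5, 79.05 and 38.5 CPM in the Luc modRNA hearts and at 5.801 and 0.381 CPM and 10.7 and 1.24 CPM in sham, with heart 1 highest and heart 4 lowest. Cxcr2, the neutrophil receptor for ELR chemokines, was at 0.587 and 0.127 CPM and 31.4, 12.6, 16.2 and 14.5 CPM (log2 fold change 3.79, SE 0.58, limma q = 5.38e-05). The rises named here held with each library left out, and the first sham heart carried more S100a8 and S100a9 than the second.

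Monocyte and macrophage genes rose too, while markers of resident cardiac macrophages did not pass the test. Of 11 monocyte and macrophage markers 8 rose and none fell (median 1.98). Ccr2, the receptor that brings blood monocytes into tissue, was at 1.15 and 0.773 CPM in sham and 7.81, 12.04, 6.63 and 12.03 CPM after MI (log2 fold change 2.403, SE 0.33, limma q = 1.55e-05), and Cd68, a lysosomal protein of phagocytes, at 6.32 and 6.66 CPM and 18.9, 24.1, 16.4 and 22.4 CPM (log2 fold change 1.504, SE 0.25, limma q = 0.000146). Chil3 was at 0.00921 and 0 CPM in sham, less than 1 read in all, and at 68.3, 20.4, 23.4 and 3.37 CPM after MI (limma q = 0.000339), which is at least 599.2-fold higher against the floor of 3 reads over the sham libraries, at least 326.6-fold without heart 1 and at least 70.0-fold for the lowest heart. It lies above the list median on either scale. Heart 1 held about 20 times as much Chil3 as heart 4. Ly6c2 of inflammatory monocytes rose by 1.84. Lyz2, a lysozyme gene, was already at 129 and 66.3 CPM in sham and at 107, 131, 72.6 and 104 CPM after MI, so that its groups overlapped (limma q = 0.78). Of 9 resident macrophage markers none passed the test (median 0.51). Their summed level was nonetheless higher without overlap, at 102 to 112 CPM in sham and 131 to 193 CPM after MI. Timd4 was at 2.93 and 1.59 CPM in sham and 1.75, 2.02, 2.72 and 1.96 CPM after MI (limma q = 0.905), Lyve1 differed by 0.52 (limma q = 0.143) and Folr2 by -0.13 (limma q = 0.766). Leaving out a library ended the call for Ly6c2 without sham 2.

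**Figure D2:**
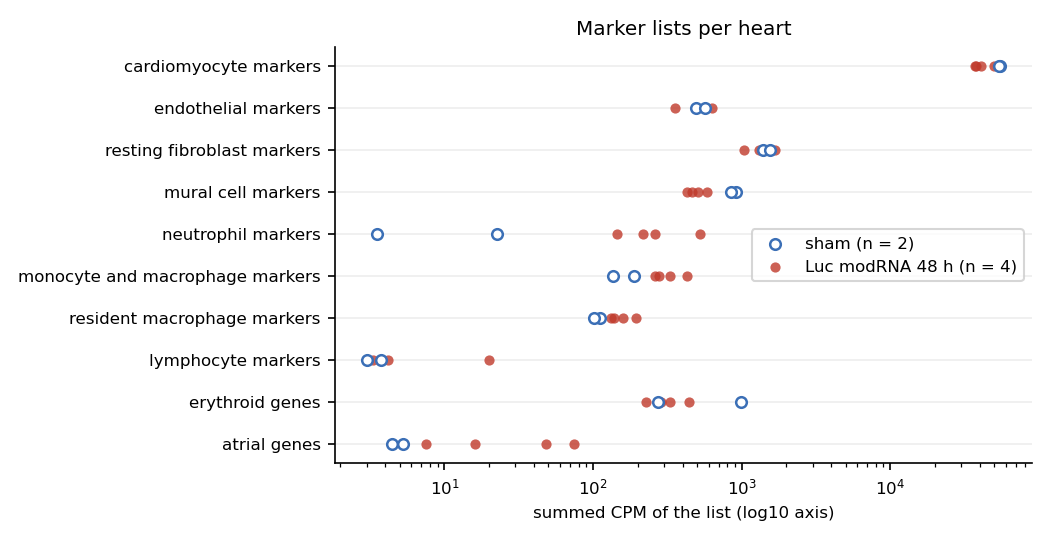
Summed CPM of each marker list in each heart, on a log10 axis, with open circles for the 2 sham hearts and filled circles for the 4 Luc modRNA hearts. The neutrophil, monocyte, resident macrophage and atrial sums lie above sham without overlap. The cardiomyocyte and mural sums lie below sham, whereas the endothelial, fibroblast, lymphocyte and erythroid sums overlap.

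Many chemokines that attract these cells rose. Of 16 CC chemokines and receptors 11 rose and none fell (median 1.86). Ccl2, the main ligand of Ccr2, was at 2.705 and 2.35 CPM in sham and 28.5, 47.7, 31.3 and 27.6 CPM after MI (log2 fold change 3.27, SE 0.51, limma q = 7.83e-05), Ccl7, a related ligand, rose by 2.82, and Ccl3 by 1.71 from a level of at most 4 reads in a sham library. Ccr1, a receptor for several CC ligands, was at 1.89 and 1.17 CPM and 39.3, 20.9, 31.8 and 15.5 CPM (log2 fold change 3.39, SE 0.38, limma q = 2.46e-06). Among 16 CXC chemokines and receptors 7 rose and none fell (median 1.24), while 4 rose without sham 2. Cxcl5, an epithelial and fibroblast ligand of Cxcr2, was at 0.684 and 0.698 CPM in sham and 28.8, 16.9, 15.02 and 11.6 CPM after MI (log2 fold change 3.42, SE 0.73, limma q = 0.00132), without overlap. Cxcl1 and Cxcl2, the other neutrophil-attracting ligands named here, were unevenly expressed. Cxcl1 was at 21.5, 7.51, 22.7 and 5.36 CPM after MI against 3.91 and 4.79 CPM (limma q = 0.273), and Cxcl2 at 21.6, 5.54, 27.9 and 1.87 CPM against 0.521 and 0.952 CPM (limma q = 0.0239). Hearts 1 and 3 were high and hearts 2 and 4 low for both. Among these genes q did not stay under 0.05 for Ccl3 without sham 1 or sham 2, and for Cxcl2 without Luc 1, Luc 3, sham 1 or sham 2.

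Il1b and its decoy receptor rose, whereas Il6 and Tnf did not pass the test. Of 21 genes of the IL-1, IL-6 and TNF systems 11 rose and 1 fell (median 0.94), while 7 rose without sham 1. Il1b, the inflammasome product interleukin-1 beta, was at 1.17 and 1.24 CPM in sham and 11.4, 8.82, 11.5 and 7.55 CPM after MI (log2 fold change 2.27, SE 0.33, limma q = 3.57e-05). Il1r2, its decoy receptor, was at 0.782 and 0.159 CPM and 74.4, 12.6, 42.5 and 7.13 CPM (log2 fold change 4.09, SE 0.62, limma q = 5.64e-05). Both were separate between the groups, and Il1r2 ranged widely among the infarcted hearts. Il6 was at 2.67 and 3.11 CPM in sham and 6.28, 3.65, 9.75 and 1.82 CPM after MI (limma q = 0.579) and Tnf at 0.196 and 0.127 CPM and 0.547, 1.72, 1.92 and 0.691 CPM (limma q = 0.303). The groups overlapped for Il6 but not for Tnf, whose values were low enough for the added 1 to shrink its difference. The gene that fell was Il6st, which encodes the shared receptor chain gp130 (log2 fold change -0.52, SE 0.20, limma q = 0.0494), and it was not called with median-ratio or equal-total rescaling. In prostaglandin and leukotriene synthesis, where 4 of 12 genes rose and 1 fell, Ptgs2 (cyclooxygenase 2) rose by 2.54 and Alox5ap (the 5-lipoxygenase activating protein) by 1.81, Lta4h (leukotriene A4 hydrolase) fell by 0.81, and Ptges differed by 0.71 (limma q = 0.155). Dependent on single libraries were the calls for Il6st without Luc 1, Luc 2, Luc 3, sham 1 or sham 2.

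Interferon-stimulated genes, which carry the antiviral programme that STAT and IRF factors switch on, were a further group with many rises. Of 29 tested genes 19 rose and none fell (median 1.47), against a background of 13.7%. In other fits 12 rose without sham 2 and with array weights. Irf7, the master regulator of type I interferon amplification, was at 5.21 and 4.95 CPM in sham and 125, 88.6, 128 and 93.2 CPM after MI (log2 fold change 4.16, SE 0.41, limma q = 5.47e-07). Isg15, a ubiquitin-like modifier, was at 1.92 and 1.52 CPM and 24.7, 14.2, 36.6 and 13.4 CPM (log2 fold change 2.98, SE 0.38, limma q = 1e-05), and Ifit1, a sensor of uncapped RNA, at 3.58 and 3.26 CPM and 38.7, 15.5, 68.1 and 16.8 CPM (log2 fold change 2.76, SE 0.58, limma q = 0.00114). No infarct value overlapped a sham value, and heart 3 was the highest of the 4 for 15 of the 19 genes. The sham hearts had no injection, so the part of MI and that of the injection cannot be told apart.

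The interferon-stimulated response element, bound by IRF and ISGF3 complexes, has as its core GAAA, any 2 bases, and GAAA. The RefSeq promoter windows (250 bases before to 50 after a start, GRCm38.p6) were searched for it on both strands, and it was found in 13 of the 21 interferon-stimulated genes with a window. Since only 21 of the 29 genes had a window, fewer than 80%, a comparison of shares would be void and was not made. The 30 bases around 1 match each are printed for Isg15, Ifit1 and Oas1a, read 5′ to 3′ on the strand of the gene, with the core in capitals; in Ifit1 it lies in reverse orientation. Oas1a encodes an oligoadenylate synthetase and was chosen after its values were seen (log2 fold change 1.68, SE 0.34, limma q = 0.000912). The windows are Isg15 at chr4:156200871-156200900 (minus strand), Ifit1 at chr19:34640794-34640823 (plus strand) and Oas1a at chr5:120907520-120907549 (minus strand). Isg15 holds 2 further matches that overlap the printed core and Oas1a 1, and Ifit1 holds 1 further match that does not overlap it.
Isg15: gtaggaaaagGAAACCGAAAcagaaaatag
Ifit1: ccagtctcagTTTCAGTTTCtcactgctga
Oas1a: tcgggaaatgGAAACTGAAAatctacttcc

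The cores began 72, 85 and 14 bases before the annotated starts of Isg15, Ifit1 and Oas1a. A match is a description of letters and no evidence of binding.

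Complement and Fc receptor genes rose, and genes of antigen presentation by MHC class II moved in both directions. Of 20 complement and Fc receptor genes 15 rose and none fell (median 1.22), while 9 rose without sham 1. C3ar1, the receptor for the C3a fragment, was at 2.74 and 2.19 CPM in sham and 13.1, 20.8, 15.2 and 17.6 CPM after MI (log2 fold change 2.34, SE 0.24, limma q = 8.48e-07), and Cfb, complement factor B of the alternative pathway, at 2.84 and 2.32 CPM and 32.4, 15.7, 27.1 and 20.1 CPM (log2 fold change 2.75, SE 0.33, limma q = 5.11e-06). C1qa of the classical pathway rose by 0.72 (limma q = 0.0445), and C3, the central component, differed by 0.89 (limma q = 0.0751). Heart 1 was the highest of the 4 for 12 of the 15 risers, and for 7 with equal totals. Of 8 genes of MHC class II presentation 4 fell and 2 rose. H2-Aa, a class II alpha chain, was at 58.3 and 50.8 CPM in sham and 19.9, 16.4, 20.1 and 13.7 CPM after MI (log2 fold change -1.596, SE 0.26, limma q = 0.000113), a fall seen in all 4 hearts. H2-Ab1 fell by 1.18, H2-Eb1 fell by 1.804, and Cd74, the invariant chain, fell by 1.197. Ctss, the cathepsin that trims the invariant chain and is abundant in phagocytes, rose by 1.75. In other fits 2 fell without sham 1, without sham 2 and with array weights. With 1 library left out, q reached 0.05 for H2-Ab1 without sham 1, for Cd74 without sham 2, for H2-Eb1 without Luc 3, sham 1 or sham 2, and for C1qa without Luc 1, Luc 3, sham 1 or sham 2.

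Among 25 genes of phagocytosis and the lysosome 12 rose and 2 fell (median 0.46). Lgals3, which encodes galectin-3 of activated macrophages, was at 3.55 and 1.87 CPM in sham and 47.7, 28.3, 49.97 and 21.98 CPM after MI (log2 fold change 3.31, SE 0.27, limma q = 7.44e-08). Gpnmb, a glycoprotein of lipid-laden and repair macrophages, rose by 1.86, from 0.0978 and 0.539 CPM to 3.94, 6.16, 1.79 and 3.95 CPM. Hexa, a lysosomal hexosaminidase subunit, fell by 0.79 on the deposited scale and was not called with equal-total rescaling. The call was lost for Hexa without Luc 1, Luc 3 or sham 1.

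Genes of the activated fibroblast and its matrix rose in part. Of 21 genes of activated fibroblasts and matricellular proteins 10 rose and 3 fell (median 0.78), while 6 rose with the compared groups alone and 1 fell without sham 1. Postn, which encodes periostin of injury-activated fibroblasts, was at 36.6 and 26.02 CPM in sham and 92.8, 86.8, 75.3 and 112 CPM after MI (log2 fold change 1.53, SE 0.23, limma q = 5.64e-05). Tnc was at 0.815 and 0.952 CPM and 35.2, 60.8, 16.2 and 84.2 CPM (log2 fold change 4.499, SE 0.64, limma q = 2.98e-05), and heart 3 was lowest for both. Acta2, the smooth muscle actin of myofibroblasts and vessel walls, was at 181 and 221 CPM and 294, 94.04, 147 and 161 CPM, with overlap (limma q = 0.516). Lrrc15, a fibroblast surface protein, fell by 1.56 (33.5 and 37.3 CPM in sham, 18.5, 8.59, 5.34 and 18.6 CPM after MI, limma q = 0.0023).

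Of 20 collagen and collagen-processing genes 10 rose and 1 fell (median 0.88), while 3 rose without sham 1, and 5 with the compared groups alone and with array weights. Col1a1, the alpha 1 chain of fibrillar type I collagen, was at 33.6 and 57.2 CPM in sham and 112, 179, 87.1 and 315 CPM after MI (log2 fold change 1.78, SE 0.40, limma q = 0.00219). Col3a1 of type III collagen was at 168 and 207 CPM and 209, 325, 122 and 529.7 CPM, with overlap (limma q = 0.446). Col8a1 of vessel-wall type VIII collagen rose by 1.36, and Col12a1, a fibril-associated collagen, by 2.19. Heart 4 was highest for 8 of the 10 risers and for Col3a1, and heart 3 was lowest for Col1a1, Col3a1 and Col8a1. P4ha2, a prolyl hydroxylase subunit, fell by 0.49 on the deposited scale and was not called with equal-total rescaling. Leaving out a library ended the call for Col1a1 without sham 1, and for P4ha2 without sham 1 or sham 2.

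Many proteases and growth factors that shape this matrix rose. Of 24 matrix proteases and inhibitors 14 rose and 1 fell (median 1.28). Adam8, a metalloprotease of leukocytes, was at 0.228 and 0.952 CPM in sham and 44.7, 27.6, 30.8 and 20.02 CPM after MI (log2 fold change 4.303, SE 0.49, limma q = 2.69e-06), Mmp14, the membrane-bound collagenase, at 16.98 and 20.3 CPM and 62.9, 36.7, 64.3 and 32.7 CPM (log2 fold change 1.295, SE 0.26, limma q = 0.000733), and Mmp3 (stromelysin 1) at 0.912 and 1.43 CPM and 42.6, 5.31, 25.99 and 4.17 CPM. Hearts 1 and 3 were highest for all 3. Timp3 was at 242 and 246 CPM and 412, 141, 371 and 153 CPM, the same hearts lying above and the other 2 below the sham hearts (limma q = 0.969). Timp2 fell by 0.64 on the deposited scale and was not called with equal-total rescaling. Of 14 TGF-beta, activin and BMP ligands and binding proteins 11 rose and 1 fell (median 1.09), while 7 rose without sham 1 and with the compared groups alone. Fstl3, an activin-binding follistatin relative, was at 3.75 and 3.803 CPM in sham and 33.5, 20.5, 45.2 and 16.5 CPM after MI (log2 fold change 2.54, SE 0.25, limma q = 4.95e-07). Inhba, the activin A subunit, rose by 1.73, Tgfb2 by 1.32 and Tgfb1 by 0.82, while Bmp6 fell by 0.66. Among these genes q did not stay under 0.05 for Mmp3 and Tgfb1 without sham 1, and for Timp2 without Luc 2 or sham 2.

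Genes of cell division rose in part, with 1 infarcted heart near the sham level, and their calls depended on single libraries. Of 30 mitosis genes 13 rose and 2 fell (median 0.70), while 1 rose with the compared groups alone, 3 without sham 2, 8 without Luc 4, and 22 without Luc 3. For all 13, heart 4 was the highest and heart 3 the lowest of the Luc modRNA hearts. Cdk1, the kinase that drives entry into mitosis, was at 2.09 and 0.793 CPM in sham and 4.45, 5.84, 1.26 and 7.77 CPM after MI (log2 fold change 1.15, SE 0.36, limma q = 0.0204), and Anln, the cytokinetic scaffold anillin, at 1.11 and 0.444 CPM and 3.39, 3.797, 1.62 and 6.14 CPM (log2 fold change 1.35, SE 0.31, limma q = 0.00224). Heart 3 fell between the sham hearts for Cdk1. Mki67 and Top2a, both widely used as proliferation markers, were at 4.01, 11.1, 2.45 and 15.2 CPM and 5, 7.51, 1.36 and 12.3 CPM after MI against 4.07 and 3.84 CPM and 2.705 and 2.06 CPM, heart 3 lying below both sham hearts (limma q = 0.378 and 0.101). Of 27 genes of DNA replication and S phase 7 rose (median 0.41), while 1 rose with the compared groups alone, 3 without sham 2, and 14 without Luc 3. Rrm2, the inducible ribonucleotide reductase subunit, rose by 0.99 and Uhrf1, a maintenance methylation factor, by 1.25, while Mcm2 and Pcna differed by -0.30 (limma q = 0.472) and 0.40 (limma q = 0.118). Of 12 cell cycle inhibitors and D cyclins 2 fell, Cdkn1c (p57) by 1.45, and Cdkn1a (p21) was at 54.7 and 78.98 CPM in sham and 344, 89.9, 363 and 42.8 CPM after MI, high in hearts 1 and 3 (limma q = 0.109). Ccnd1 differed by 0.25. Dependent on single libraries were the calls for Anln, Rrm2 and Uhrf1 without sham 2, and for Cdk1 without Luc 4 or sham 2.

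The 2 genes of the mitosis list that fell were Cenpf and Cenpa, the latter named after its values were seen. Cenpf, which encodes a large centromere and nuclear envelope protein, was at 34.3 and 32.7 CPM in sham and at 1.68, 3.59, 1.76 and 21.1 CPM after MI (log2 fold change -2.72, SE 0.58, limma q = 0.00134). Heart 4 came nearest to the sham level. No infarcted heart overlapped with sham, a condition of its place among the largest falls. The fall of Cenpf held with each library left out. Cenpa, the centromeric histone H3 variant, fell by 0.65 (limma q = 0.0483), a call that was lost without any of Luc 1, Luc 3, Luc 4, sham 1 or sham 2 and with rescaling of either kind, the compared groups alone, array weights or the replicate block.

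Promoters of mitotic genes often carry the cell cycle homology region, whose core is TTTGAA, together with CCAAT boxes that bind NF-Y. In the same RefSeq windows, searched on both strands, TTTGAA was found in 18 of the 24 mitosis genes with a window (75.0%, against 14.0% of all tested genes with one) and CCAAT in 20 (83.3% against 42.6%). The 30 bases around a TTTGAA of Cdk1, which rose, Anln, which rose, and Cenpf, which fell, are shown because a riser and a faller carried the same letters, here in capitals. Cdk1 and Anln each hold a further match. That of Anln, in reverse orientation, lies inside its printed window in lower case. The printed windows lie at chr10:69352910-69352939, chr9:22389161-22389190 and chr1:189688067-189688096 (GRCm38.p6, all on the minus strand).
Cdk1: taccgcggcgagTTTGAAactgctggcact
Anln: tgaaattcaaatTTTGAAcggccgtggtag
Cenpf: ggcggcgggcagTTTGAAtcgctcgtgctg

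Of the 18 genes with TTTGAA, 7 rose and 2 fell. Of all 30 tested mitosis genes, those without a window included, 13 rose and 2 fell. The share called was the same in both, so the match did not mark out the genes that moved.

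Among cardiomyocyte stress genes, the fetal programme was higher. Of 12 genes of natriuretic peptides and the fetal switch 9 rose and 1 fell (median 1.79). Nppa, atrial natriuretic peptide, was at 116 and 59.2 CPM in sham and 1089, 897, 491 and 1106 CPM after MI (log2 fold change 3.35, SE 0.41, limma q = 5.11e-06), Nppb, brain natriuretic peptide, at 131 and 36.1 CPM and 990.1, 776, 682 and 389 CPM (log2 fold change 3.26, SE 0.39, limma q = 4.28e-06), and Acta1, skeletal alpha-actin of the fetal heart, at 116 and 45.9 CPM and 839, 695, 1073 and 762 CPM (log2 fold change 3.49, SE 0.40, limma q = 2.87e-06). All infarct values lay above both sham values, and the first sham heart was about 2 to 4 times higher than the second. Nppa is also made by atrial tissue, and Myl7 and Myl4, given above, reached 20.6 and 32.9 CPM in the same hearts, whose part in the Nppa result was not tested. Nppb was highest in heart 1 and lowest in heart 4. Myh7, the beta myosin of the fetal switch, was at 514 and 1005 CPM in sham and 986, 602, 931 and 1159 CPM after MI, with overlap (limma q = 0.418). The gene that fell was Ctgf, a YAP and TGF-beta target (log2 fold change -1.04, SE 0.31, limma q = 0.0156). With 1 library left out, q reached 0.05 for Myl7 without sham 1, for Ctgf without sham 1 or sham 2, and for Myl4 without Luc 3, sham 1 or sham 2.

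Contractile genes moved in both directions, and calcium-handling genes fell or did not pass the test. Of 27 sarcomere and Z-disc genes 3 rose and 7 fell (median -0.24), while 2 fell with the compared groups alone, and 3 without sham 2. Ankrd1, the stretch-responsive cardiac ankyrin repeat protein, was at 1313 and 1031 CPM in sham and 3875, 2648, 4160.3 and 3346 CPM after MI (log2 fold change 1.57, SE 0.22, limma q = 2.07e-05). Actc1, cardiac alpha-actin, fell by 0.49 on the deposited scale (10449 and 10676 CPM in sham, 8751, 7598, 6202 and 7828 CPM after MI, limma q = 0.0405) and was not called with equal-total rescaling. Of 19 calcium-handling genes 6 fell and none rose (median -0.48), while 3 fell with the compared groups alone. Atp2a2, the sarcoplasmic reticulum calcium pump SERCA2, was at 9801 and 12427 CPM in sham and 6112, 4396, 5371 and 5075 CPM after MI (log2 fold change -1.08, SE 0.17, limma q = 8.04e-05), a drop shared by all 4 hearts. Pln, its inhibitor phospholamban, fell by 0.72 and Camk2a, a calmodulin-dependent kinase subunit, by 1.47, whereas Ryr2, the calcium release channel, was at 799 and 962 CPM and 600.4, 655, 551 and 725 CPM without overlap but above the threshold (limma q = 0.181). The call was lost for Pln without sham 1, for Camk2a without sham 2, and for Actc1 without Luc 2, Luc 3, sham 1 or sham 2.

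Many ion channel genes fell and none rose. Of 20 potassium and sodium channel genes 12 fell against a background of 16.4% (median -0.78), while 6 fell without sham 2 and with the compared groups alone. Kcnv2, a silent voltage-gated potassium channel subunit, was at 17.04 and 15.8 CPM in sham and 0.693, 2.42, 0.531 and 2.41 CPM after MI (log2 fold change -2.89, SE 0.31, limma q = 1.44e-06). Kcnd2, a pore subunit of the transient outward current, was at 19.8 and 29.8 CPM and 7.41, 8.18, 4.87 and 12.2 CPM (log2 fold change -1.52, SE 0.25, limma q = 0.00013), and Kcnj2, the inward rectifier that sets the resting potential, fell by 1.14. Heart 4 was the highest infarcted heart for 10 of the 12 fallers. Of 21 adrenergic, junction and conduction genes 1 rose and 6 fell (median -0.30), while 0 fell without sham 2 and with the compared groups alone, 1 with equal-total rescaling, and 3 with array weights. Adra1a, the alpha 1A adrenergic receptor, fell by 0.91. Adrb1 (difference 0.08, limma q = 0.834), Gja1 of connexin 43 (difference -0.20, limma q = 0.637) and Tbx5 (difference -0.54, limma q = 0.0506) did not pass. Leaving out a library ended the call for Kcnj2 and Adra1a without sham 2.

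**Figure D3:**
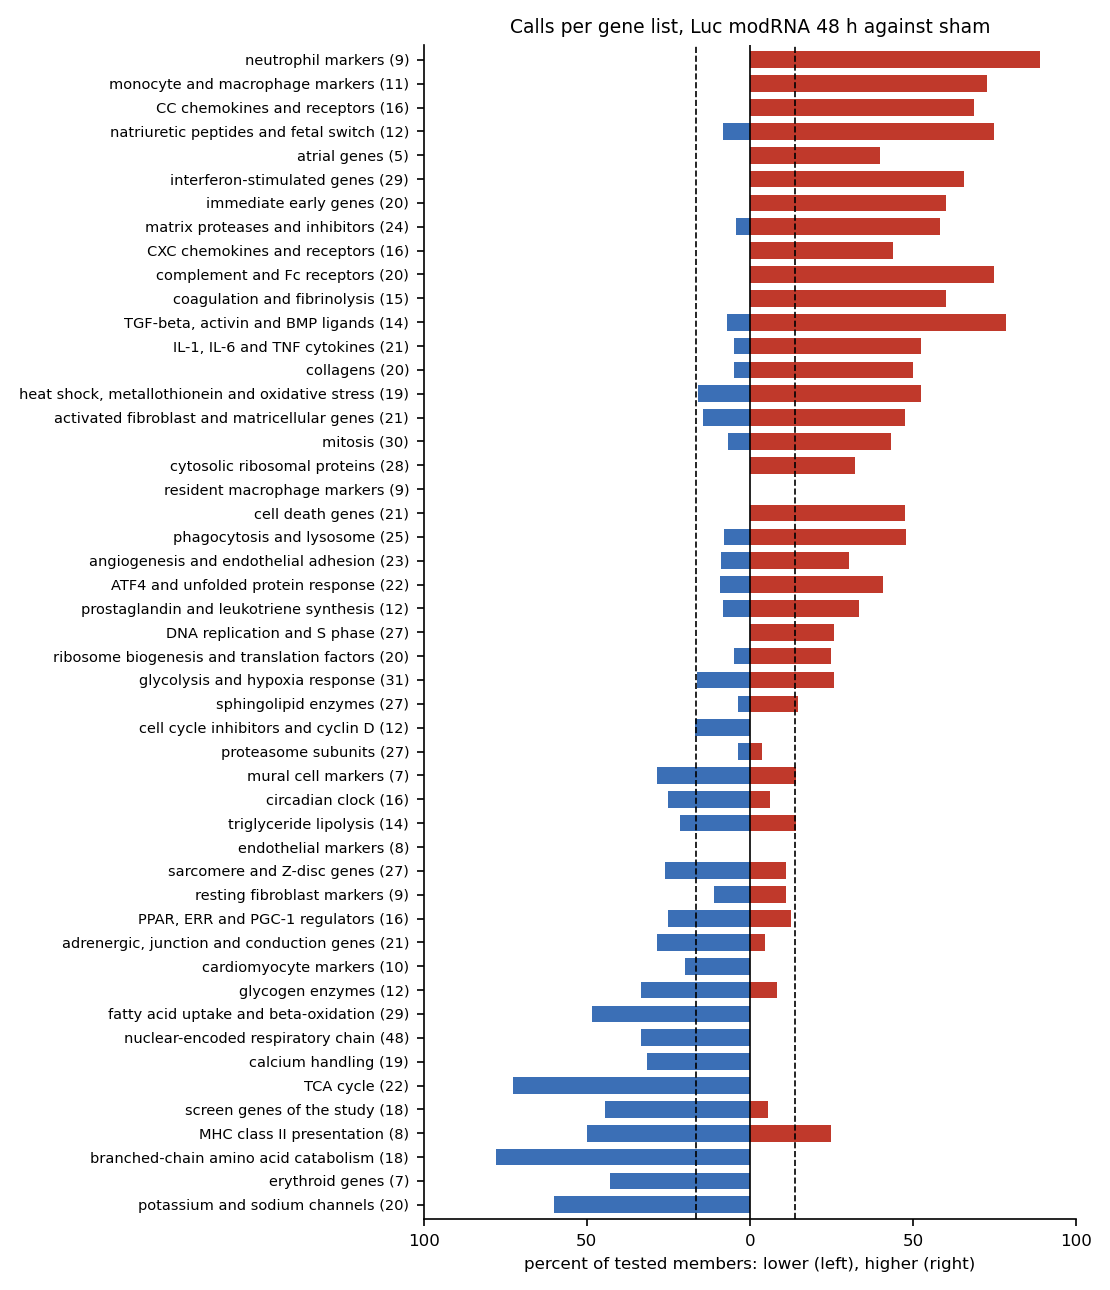
Percent of the tested members of each gene list that were higher (right) or lower (left) in the Luc modRNA hearts at 48 h than in sham at q under 0.05, with the number tested beside each name and dashed lines at the background of 13.7% higher and 16.4% lower. Myeloid, chemokine, complement and fetal lists lie far to the right, and the TCA cycle, branched-chain amino acid and channel lists far to the left.

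In each of the lists of mitochondrial metabolism some genes fell and none rose. Of 29 genes of fatty acid uptake and beta-oxidation 14 fell and none rose (median -0.48), while 4 fell with the compared groups alone, 7 without sham 1, 8 without Luc 4, and 9 without Luc 2 and without sham 2. Acadm, the medium-chain acyl-CoA dehydrogenase, was at 1399 and 1288 CPM in sham and 837, 629.6, 717 and 594 CPM after MI (log2 fold change -0.96, SE 0.14, limma q = 4.83e-05). All 4 infarcted hearts lay below the sham hearts. Cpt1b, the muscle carnitine palmitoyltransferase of mitochondrial entry, was at 414 and 584 CPM and 428, 379, 373 and 379 CPM (limma q = 0.0651), and Cd36, the fatty acid translocase, which endothelium and macrophages also express, at 1309 and 1048 CPM and 2341, 1319, 1935 and 1036 CPM (limma q = 0.165). Of 22 genes of the TCA cycle 16 fell and none rose (median -0.60), while 2 fell with the compared groups alone. Suclg2, a succinyl-CoA ligase subunit, was at 242 and 214 CPM in sham and 143, 116, 122 and 102 CPM after MI (log2 fold change -0.92, SE 0.14, limma q = 7.68e-05), and Cs (citrate synthase), Idh2 (isocitrate dehydrogenase 2) and Ogdh (oxoglutarate dehydrogenase) fell by 0.53, 0.59 and 0.64. Heart 1 was the highest infarcted heart for 15 of the 16 fallers and heart 4 the lowest for 13, and with equal totals each was so for 11. Among these genes q did not stay under 0.05 for Cs, Idh2 and Ogdh without sham 2.

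The nuclear-encoded respiratory chain fell in smaller part and its sham values were uneven. Of 48 genes 16 fell and none rose (median -0.48), while 4 fell without sham 1 and with the compared groups alone, and 8 without Luc 4. The summed level of the 48 genes was 29484 to 38849 in the sham hearts and 19489.9 to 29954 in the Luc modRNA hearts, so that the sham hearts differed from each other about as much as the groups did. Ndufs1, the largest complex I subunit, was at 751 and 687 CPM in sham and 523, 356, 418 and 361 CPM after MI (log2 fold change -0.81, SE 0.15, limma q = 0.000372). Ndufa5, another complex I subunit, fell by 1.02 and Atp5a1, the ATP synthase alpha subunit, by 0.59, while Uqcrc1 of complex III and Cox6a2 of complex IV differed by -0.16 (limma q = 0.561) and 0.19 (limma q = 0.652). Heart 1 was highest among the infarcted hearts for all 16 fallers, but with equal totals for 7, heart 2 being highest for 8. Of 18 genes of branched-chain amino acid catabolism 14 fell and none rose (median -0.72), while 8 fell with the compared groups alone, and 9 without sham 1. Pcca, a propionyl-CoA carboxylase subunit, was at 97.2 and 91.4 CPM in sham and 45.7, 36.5, 35.8 and 37.9 CPM after MI (log2 fold change -1.26, SE 0.12, limma q = 3.15e-07), and Ivd (isovaleryl-CoA dehydrogenase) fell by 0.72. The entry enzymes Bcat2 and Bckdha differed by -0.10 (limma q = 0.674) and 0.09 (limma q = 0.776). Dependent on single libraries were the calls for Ndufa5 without sham 1, and for Atp5a1 without sham 1 or sham 2.

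**Figure D4:**
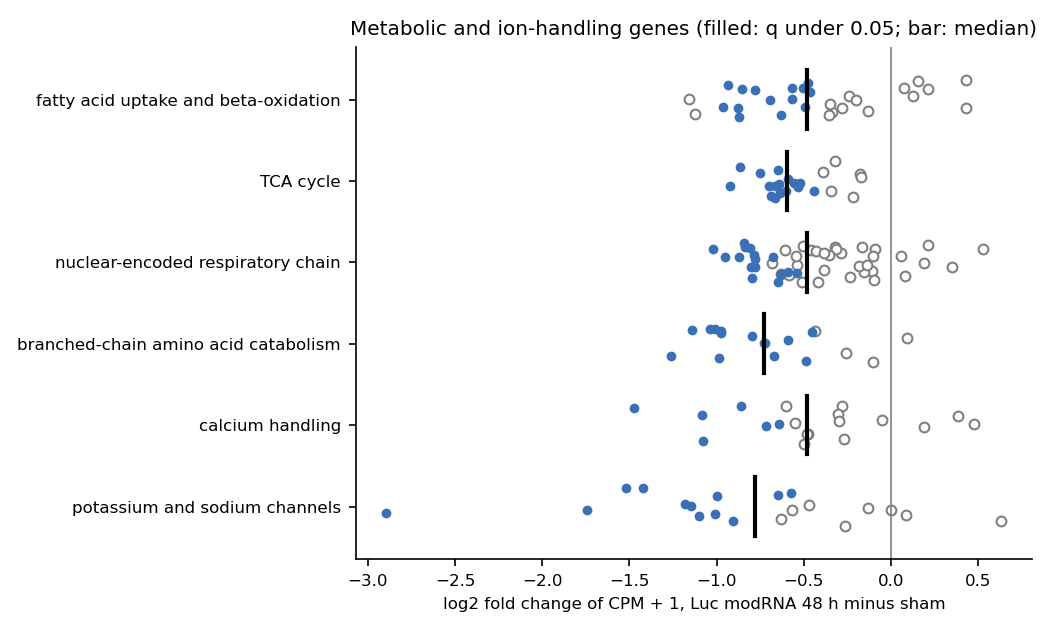
Log2 fold change of each tested member of 6 metabolic and ion-handling lists, Luc modRNA hearts at 48 h minus sham, with filled circles for genes called at q under 0.05, open circles for the rest and a bar at the list median. No called gene lies above 0 in these lists, and the medians run from -0.78 for the channels to -0.48.

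Regulators and other fuel genes moved in both directions. Of 16 genes of the PPAR, ERR and PGC-1 network 2 rose and 4 fell, while 2 fell without sham 2 and with the compared groups alone. Ppara, Esrra and Ppargc1a, its central transcription factors and coactivator, did not pass (differences -0.15, 0.57 and -0.34, limma q = 0.596, 0.151 and 0.346). Klf15, a circadian metabolic regulator, fell by 1.05, and Nr4a1, an orphan receptor and immediate early gene, rose by 2.08. Of 14 triglyceride lipolysis genes 2 rose and 3 fell, while 1 fell without Luc 3, without Luc 4, without sham 2, with the compared groups alone, with the replicate block, with median-ratio rescaling and with equal-total rescaling. Ces1d, a carboxylesterase with lipase activity, was at 172 and 142 CPM in sham and 47.6, 30.6, 30.6 and 31.4 CPM after MI (log2 fold change -2.15, SE 0.24, limma q = 1.59e-06), G0s2, which inhibits the triglyceride lipase ATGL, rose by 1.64, and Pnpla2 (ATGL itself) and Lipe differed by 0.50 (limma q = 0.12) and 0.37 (limma q = 0.298). With 1 library left out, q reached 0.05 for Nr4a1 without sham 1, and for Klf15 without sham 2.

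A glucose and a lactate transporter rose within a list that moved in both directions. Of 31 genes of glycolysis and the hypoxia response 8 rose and 5 fell (median 0.23). In other fits 5 rose with array weights, and 13 with equal-total rescaling, while 2 fell without sham 2 and with the compared groups alone, and 3 without sham 1 and with equal-total rescaling. Slc2a1, the basal glucose transporter GLUT1, was at 8.11 and 12.9 CPM in sham and 69.9, 33.6, 90.5 and 36.2 CPM after MI (log2 fold change 2.26, SE 0.29, limma q = 7.97e-06), and Slc16a3, the lactate exporter MCT4, at 0.815 and 1.52 CPM and 45.1, 18.1, 46.4 and 22.3 CPM (log2 fold change 3.87, SE 0.45, limma q = 2.81e-06). Hearts 1 and 3 were highest for both. Hk2 and Ldha, hexokinase 2 and lactate dehydrogenase A, had differences of 0.10 (limma q = 0.778) and 0.19 (limma q = 0.499), and Pfkfb2, the cardiac bifunctional regulator, fell by 1.04 on the deposited scale and was not called with equal-total rescaling. Of 12 glycogen enzymes 1 rose and 4 fell. Pygm, the muscle glycogen phosphorylase, was at 945 and 1366 CPM in sham and 639, 541, 626 and 659 CPM after MI (log2 fold change -0.89, SE 0.16, limma q = 0.000288), and Pygl, the liver form that leukocytes also express, went from 3.68 and 2.697 CPM to 14.6, 6.78, 15.4 and 8.32 CPM (log2 fold change 1.49, SE 0.33, limma q = 0.00168). Phkg1, a phosphorylase kinase subunit, fell by 1.53, and Gys1 differed by -0.32 (limma q = 0.133). Pygm and Pygl, isoforms of 1 enzyme, moved in opposite directions. The call was lost for Pfkfb2 without sham 2.

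Sphingolipid metabolism, which the title of the series names, includes acid ceramidase (Asah1), the enzyme that hydrolyses ceramide to sphingosine. Of 27 tested sphingolipid enzymes 4 rose and 1 fell (median 0.23), near the background of 13.7% and below that of 16.4%. In other fits 2 rose with the compared groups alone and with array weights, and 8 without Luc 4 and with equal-total rescaling. Asah1 was at 32.9 and 25.1 CPM in sham and 28.2, 23.5, 21.4 and 25.1 CPM after MI (limma q = 0.673), and Sptlc2, a subunit of the first enzyme of ceramide synthesis, at 18.2 and 16.6 CPM and 29.5, 24.8, 19.6 and 23.1 CPM (limma q = 0.136). Sphk1, the kinase that makes sphingosine-1-phosphate, was at 2.38 and 3.78 CPM in sham and 26.1, 5.696, 32.1 and 3.79 CPM after MI (log2 fold change 1.696, SE 0.56, limma q = 0.0246), high in hearts 1 and 3 and at the sham level in heart 4. Cers4, a ceramide synthase, fell by 0.701. Of 18 genes that the study singled out in its own screen and that were tested here, 8 fell and 1, Pygl, rose. The study chose them for lowered mRNA with raised protein at 4 h or 24 h after MI, in other libraries. The list is no independent evidence of direction because it was chosen on data of the same study. Of the same genes 3 fell with the compared groups alone, and 5 without sham 1. Fn3k, a fructosamine kinase, fell by 1.48, and Gsn (gelsolin) and Serpina1b did not pass (limma q = 0.444 and 0.072). Leaving out a library ended the call for Sphk1 without Luc 1, Luc 3, sham 1 or sham 2.

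Genes of clotting and fibrinolysis rose in part. Of 15 coagulation and fibrinolysis genes 9 rose and none fell (median 1.14). Plaur, the urokinase receptor, chosen after its values were seen, was at 2.25 and 3.97 CPM in sham and 29.7, 11.04, 25.1 and 11.8 CPM after MI (log2 fold change 2.22, SE 0.35, limma q = 8.49e-05), without overlap and highest in hearts 1 and 3, whereas F3 (tissue factor) and Plat (tissue plasminogen activator) did not pass (limma q = 0.779 and 0.077). Of 23 genes of angiogenesis and endothelial adhesion 7 rose and 2 fell, while 3 rose without sham 1, and 4 with array weights. Pgf, placental growth factor, was at 6.03 and 7.96 CPM in sham and 101, 21.7, 91.1 and 16.3 CPM after MI (log2 fold change 2.47, SE 0.52, limma q = 0.00118), with hearts 1 and 3 several times above hearts 2 and 4. Aplnr, the apelin receptor, fell by 1.41 on the deposited scale and was not called with equal-total rescaling. Vegfa, Apln and Sele differed by 0.48, 0.56 and 0.74 (limma q = 0.164, 0.151 and 0.513). Among these genes q did not stay under 0.05 for Aplnr without Luc 1, Luc 3 or sham 1.

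Many stress response genes rose. Of 20 immediate early genes 12 rose and none fell (median 1.33), while 5 rose with array weights, and 6 without sham 1. Ier3 was at 9.71 and 9.55 CPM in sham and 69.6, 32.4, 118 and 35.8 CPM after MI (log2 fold change 2.41, SE 0.40, limma q = 0.000135), Fos and Jun of the AP-1 complex rose by 2.26 and 1.27, and Egr1 differed by 1.003 (limma q = 0.226). Of 19 genes of heat shock, metallothionein and oxidative stress 10 rose and 3 fell (median 0.87), while 6 rose with array weights. Hmox1, haem oxygenase 1, was at 10.2 and 13.3 CPM in sham and 108, 65.7, 163 and 74.6 CPM after MI (log2 fold change 2.95, SE 0.43, limma q = 3.77e-05), Mt1 (metallothionein 1) at 44.03 and 53.9 CPM and 303, 121, 370.3 and 93.5 CPM (log2 fold change 1.93, SE 0.42, limma q = 0.00165), and Hspa1a, an inducible HSP70, rose by 2.199 with heart 3 apart from the rest, at 5.33, 3.14, 27.2 and 5.58 CPM. Heart 3 was the highest infarcted heart for 8 of these 10 risers. Hsph1, an HSP110 chaperone, fell by 1.25. Dependent on single libraries were the calls for Fos without sham 1, and for Hspa1a without Luc 3, sham 1 or sham 2.

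In the ATF4 and unfolded protein response list 9 of 22 genes rose and 2 fell (median 0.42), while 5 rose with array weights. Slc7a5, an ATF4-induced amino acid transporter, was at 3.26 and 5.05 CPM in sham and 25.3, 13.2, 27.98 and 15.2 CPM after MI (log2 fold change 2.01, SE 0.29, limma q = 3.14e-05), and Atf4 and Ddit3 (CHOP) rose by 1.003 and 1.09. Hspa5, the chaperone BiP, differed by -0.25 (limma q = 0.369), and Herpud1, of endoplasmic reticulum-associated degradation, fell by 0.99. Of 21 cell death genes 10 rose and none fell (median 0.49), while 5 rose with array weights, and 6 without sham 2 and with the compared groups alone. Tnfrsf12a, the TWEAK receptor, was at 32.8 and 19.3 CPM and 175, 90.5, 165 and 59.2 CPM (log2 fold change 2.11, SE 0.32, limma q = 4.97e-05), the BH3 and effector genes Pmaip1 and Bax rose by 1.04 and 1.06, and Bcl2l1 differed by 0.23 (limma q = 0.575). With 1 library left out, q reached 0.05 for Atf4 without sham 2, and for Pmaip1 without Luc 3, sham 1 or sham 2.

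Genes of the clock and of protein synthesis and breakdown gave a mixed picture. Of 16 clock genes 1 rose and 4 fell (median -0.10), while 2 fell without sham 2 and with the compared groups alone. Dbp, a clock output factor, was at 21.9 and 36.3 CPM in sham and 2.74, 5.88, 5.11 and 13.1 CPM after MI (log2 fold change -2.09, SE 0.40, limma q = 0.000575), Per2 rose by 0.91, and Arntl differed by -0.14 (limma q = 0.781). The hour of day of collection is not given in the sources used here. Of 28 cytosolic ribosomal protein genes 9 rose and none fell (median 0.64), while 14 rose with median-ratio rescaling, 15 with the replicate block, and 18 with equal-total rescaling. Rplp1 was at 20.1 and 40.7 CPM in sham and 163, 123, 129.8 and 183 CPM after MI (log2 fold change 2.32, SE 0.41, limma q = 0.000242), Rplp0 and Rpl3 rose by 0.997 and 1.33, and Rps3 differed by 0.42 (limma q = 0.144). Ribosomal protein genes have many processed pseudogenes, and counting that divides their reads can move these values. Of 20 genes of ribosome biogenesis and translation 5 rose and 1 fell, while 1 rose with the compared groups alone, 2 without sham 2 and with array weights, and 11 with equal-total rescaling. Among them were Fbl (fibrillarin) and Eif4ebp1 rising by 0.59 and 0.88, and Eif4e, which fell by 0.81, whereas Ncl and Npm1 differed by -0.07 and 0.38 (limma q = 0.8294 and 0.0846). Of 27 proteasome genes 1 rose and 1 fell, under the background. These were Psmb8, an interferon-induced subunit (log2 fold change 1.09, SE 0.26, limma q = 0.00342), and Psme1 (fell by 0.68), with Psma1, Psmb5 and Psmd11 at differences of -0.21, 0.33 and 0.21. The call was lost for Eif4e without sham 1, for Fbl and Psmb8 without sham 2, for Per2 without Luc 1, Luc 3 or sham 1, for Eif4ebp1 without Luc 1, Luc 3, sham 1 or sham 2, and for Psme1 without Luc 2, Luc 3, Luc 4 or sham 1.

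The Luc modRNA hearts at 24 h, 3 libraries of the same treatment, show where the 48 h level stood in time. Between 24 h and 48 h, 1170 genes (9.32%) were higher and 4088 (32.6%) lower at 48 h on the deposited scale, where the median of all genes lay at -0.25 on the log2 scale. With median-ratio rescaling the split was 2000 higher and 2086 lower and the median -0.03, and with equal totals 3228 and 947 and 0.18, so only changes far larger than this shift and of one sign under the 3 scalings are described. This comparison and that with sham share the 48 h hearts. Time and any difference between sets of libraries cannot be told apart here.

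Arg1 was at 0.118 to 0.547 CPM at 24 h and at 51.5, 54.3, 23.97 and 24.2 CPM at 48 h (log2 difference 4.78, SE 0.45, limma q = 5.06e-07), Spp1 at 1.28 to 2.41 CPM and 31.5, 148, 7.86 and 93.4 CPM (log2 difference 3.94, SE 0.59, limma q = 4.35e-05), and Csf3r at 3.83 to 6.93 CPM and 40.4, 31.2, 22.9 and 35.9 CPM (log2 difference 2.48, SE 0.37, limma q = 4.95e-05). Nmrk2 was at 7.301 to 85.8 CPM at 24 h (log2 difference 3.35, SE 0.69, limma q = 0.000726), below all its 48 h values, as the choice of these genes required. Tfrc, the transferrin receptor, was at 11.2 to 11.7 CPM at 24 h and 103, 119.6, 24.9 and 92.1 CPM at 48 h (log2 difference 2.58, SE 0.43, limma q = 0.000127), yet at 79.97 and 46.9 CPM in sham, and its 48 h level did not pass the test against sham (limma q = 0.736). Heart 3 was the lowest of the 48 h hearts for Tfrc, as it was for Spp1.

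Interferon-induced chemokines and a granulocyte growth factor were lower at 48 h than at 24 h. Cxcl10, an interferon-induced ligand that attracts T cells, was at 84.95 to 128 CPM at 24 h and 1.13, 1.02, 7.66 and 0.968 CPM at 48 h (log2 difference -5.21, SE 0.59, limma q = 3.3e-06), and its related ligand Cxcl9 at 23.4 to 142 CPM and 1.31, 0.555, 2.39 and 0.415 CPM (log2 difference -4.84, SE 0.57, limma q = 5e-06). Ifit2 was at 351 to 883 CPM at 24 h and 33.5, 16.6, 73.5 and 22.4 CPM at 48 h (log2 difference -4.12, SE 0.58, limma q = 2.61e-05), and Csf3, granulocyte colony-stimulating factor, at 9.200 to 147 CPM and 2.15, 0.117, 1.29 and 0.0553 CPM (log2 difference -4.11, SE 0.79, limma q = 0.000409). Of the 29 interferon-stimulated genes 28 were lower at 48 h than at 24 h and 0 higher, against 32.6% and 9.32% of all genes, although 19 were still above sham, and their median difference was -2.35 on the deposited scale and -2.12 with median-ratio rescaling. Gm10052 was at 55.04 to 96.8 CPM at 24 h against 0.271, 1.34, 2.200 and 2.37 CPM at 48 h (log2 difference -4.89, SE 0.39, limma q = 8.02e-08).

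**Figure D5:**
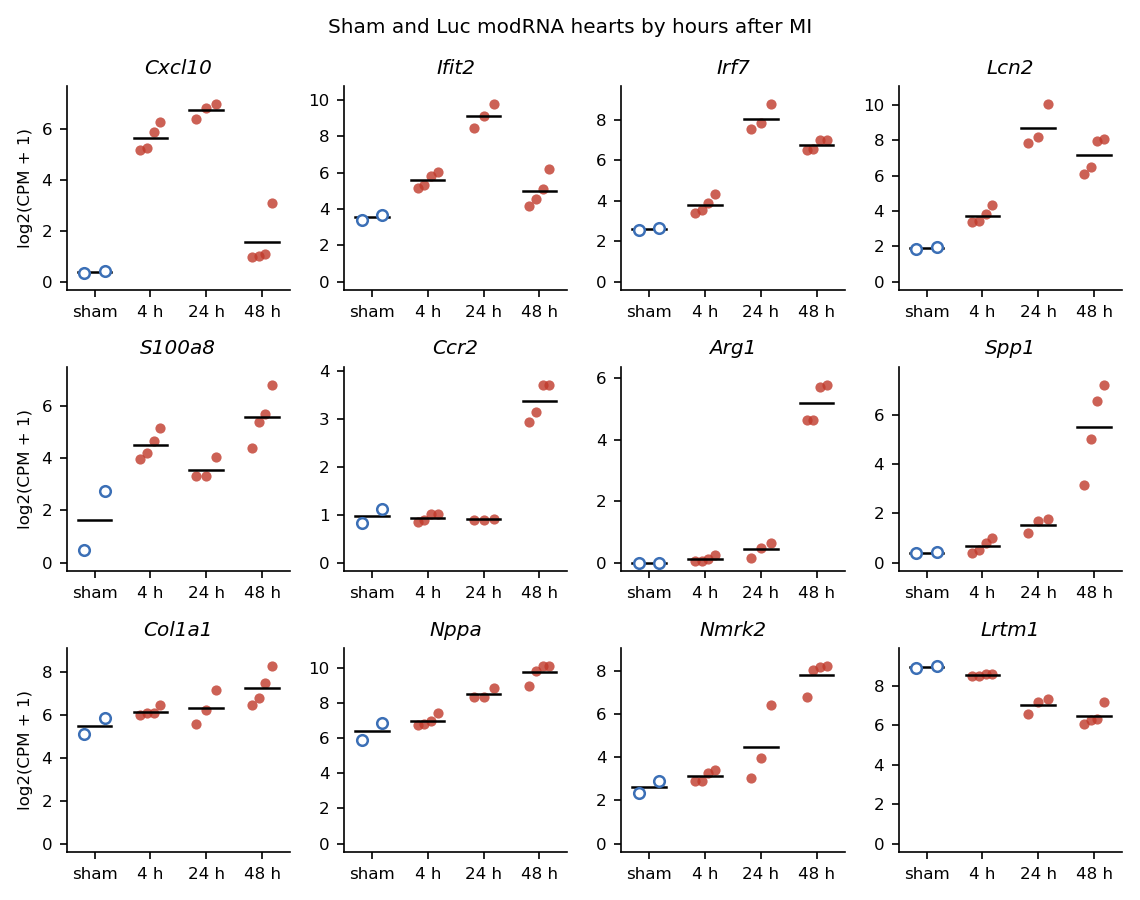
CPM of 12 genes in sham hearts and in Luc modRNA hearts at 4 h, 24 h and 48 h after MI, on log2(CPM + 1) axes, with 1 circle per heart and a bar at the mean of each group. Every 48 h heart lies above every 24 h heart for Arg1, Spp1, Nmrk2, Ccr2, S100a8 and Nppa, and below every 24 h heart for Cxcl10, Ifit2 and Irf7. For Arg1, Spp1, Nmrk2, Cxcl10 and Ifit2 this was a condition of their choice.

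The hearts given AC modRNA (AC as in the labels, which do not spell it out) at 48 h, 4 libraries, shared the MI and the injection, so the 48 h levels can be set beside those with another transcript. Between the treatments 1926 genes (15.3%) differed, 1516 being higher and 410 lower in the AC modRNA hearts, where the median of all genes lay at 0.135 on the log2 scale. The split was 823 higher and 801 lower with median-ratio rescaling and 2077 and 419 with equal totals. The count was 810 without Luc 3, 1094 without Luc 1, 1078 without AC 2, 1097 without AC 4, 1252 without AC 5 and 2896 without Luc 4, and it was 977 with the replicate block, 1208 with the compared groups alone and 3178 with array weights. Ccr2 was at 36.3 to 53.4 CPM in the AC modRNA hearts against 7.81, 12.04, 6.63 and 12.03 CPM with Luc modRNA (log2 difference 2.12, SE 0.27, limma q = 5.65e-05), Spp1 at 236 to 398 CPM (log2 difference 2.84, SE 0.54, limma q = 0.0014) and Tnc at 132 to 305 CPM (log2 difference 2.05, SE 0.53, limma q = 0.0121), all higher than with Luc modRNA. Lcn2 was at 27.7 to 57.1 CPM and lower (log2 difference -1.85, SE 0.47, limma q = 0.0111). Arg1 at 62.9 to 85.6 CPM (limma q = 0.125), Slfn4 at 35.01 to 74.3 CPM (limma q = 0.509) and Nmrk2 at 139.7 to 434 CPM (limma q = 0.837) did not pass the threshold, and the AC modRNA hearts too lay above both sham hearts for all 3. Tnc was not called without AC 4 or Luc 3, and Lcn2 not without Luc 3.

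The 4 Luc modRNA hearts were not alike, and gene groups followed different hearts. With equal totals, heart 1 was the highest of the 4 for 6 of 8 neutrophil risers, heart 3 for 15 of 19 interferon-stimulated genes, 8 of 10 heat shock risers and all 8 glycolysis and hypoxia risers, and heart 4 for all 13 mitosis and all 7 S phase risers and 8 of 10 collagen risers. Among fallers, heart 4 was the highest for 10 of 12 channel genes. Each of these counts was the same on the deposited scale, apart from 7 for the neutrophil and 7 for the glycolysis and hypoxia risers. These are descriptions of 1 heart each, with no replicate of a heart and no test. Where a group's rise is given as a median, it averages hearts that differ in this way.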

How the data were processed

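Poly(A) RNA of mouse LV was made into TruSeq Stranded mRNA libraries, 1 library per sample. The authors deposited CPM values (reads scaled to library size) for 17406 genes in 24 libraries, to which 1 had been added (the lowest value was exactly 1 in every library), and mm10 is the build in the submitters' processing notes. For its RNA-seq data the study's methods give alignment with STAR, expectation-maximization counting on RefSeq genes in Partek and trimmed-mean normalization. They name no table and another library kit than the labels, so that their use for these libraries is not stated. No mitochondrially encoded gene is listed.

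From these values 1 was subtracted, and 12555 genes whose mean over the 24 libraries reached 1 CPM were kept. The main test was limma 3.58.1 in R 4.3.3 (a linear model and moderated variances that follow the mean) fitted to log2(CPM + 1), with the 24 libraries in 1 model of 7 groups that share the estimate of spread, and Benjamini-Hochberg adjustment over the kept genes at 0.05. Leaving out a library, rescaling and the other alternatives in the closing section changed 1 choice at a time. The code was tested on simulated data with 200 changed genes. Steps of 1 read were read from low values, but only 84.0% to 86.7% of values under 5 CPM were whole multiples (tolerance 0.05 reads), too few for a count test, so a depth is an estimate and floors cover counting error only. With 4 against 2 libraries an exact permutation test cannot go below p = 0.067 (15 splits), so none was used.

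Members and gene lists (53 lists, 937 genes, of which 880 passed the filter and 57 did not) were chosen with earlier results of these data known, and lists are described by counts and medians, with no set test. Genes were named by rule: the 10 largest rises and 10 largest falls among called genes averaging 10 CPM or more without overlap, key members of each list, the called member with the largest rise and fall in each list, and the 5 largest differences in each direction between 48 h and 24 h. The last were likewise called genes averaging 10 CPM or more without overlap, in the hearts compared. Some genes that this rule names are not reported here. Fold-change and p-value columns of the authors were not present. Promoter windows came from RefSeq (GRCm38.p6), where 9737 tested genes matched.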

Additional observations from a re-analysis of the deposited data

Results flagged for a closer look

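Among the 221 genes named in the text, 11 had 1 Luc modRNA heart at 48 h that stood apart from the other 3 by Dixon's test at the 95% level, which chance gives in about 1 of 20 genes, that is in about as many as were found. Heart 1 was the high one for Ces1d (47.6 CPM), Cpt1b (428 CPM), F3 (18.2 CPM) and Fbl (27.4 CPM). Heart 3 was the high one for Cd3e (18.3 CPM), Cxcl10 (7.66 CPM) and Hspa1a (27.2 CPM). Heart 4 was the high one for Abcc9 (165.7 CPM), Cenpf (21.1 CPM) and Lrtm1 (142 CPM), 3 genes that fell, so this heart lay nearest to sham for them. Heart 2 was the high one for Gm6981 (50.3 CPM), a predicted locus in which the other 3 hearts were at 2.27 CPM or less.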

How the results depend on the processing

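The number of genes that differed between the Luc modRNA hearts at 48 h and sham was 3774. It was 2227 with array weights, 1494 with the compared groups alone and 2150 to 3998 with 1 library left out, the lowest without sham 1, and it stayed within 1.5 times with the other alternatives. With the replicate number as a replicate block it was 3394. Only 2 numbers are shared, they mark different mice, and the deviations of same-numbered hearts correlated at 0.12 and -0.26, so the numbers were not taken as pairs. Between 48 h and 24 h the count was 5258, and 3737 to 5245 with 1 library left out. No paired analysis was possible because the 24 h libraries carry letters, not numbers. Between AC and Luc modRNA at 48 h it was 1926, and it was 3178 with array weights, 1208 with the compared groups alone, 1182 with a mean of at least 5 CPM, 977 with the replicate block and 810 to 2896 with 1 library left out (lowest without Luc 3, highest without Luc 4). The cause of these differences was not tested. With only 2 sham hearts, 35 of the 147 named genes called lost the call without sham 1 and 35 without sham 2, 93 kept it in all 6 omissions, 39 lost it with the compared groups alone, 37 with array weights, 9 with equal-total and 3 with median-ratio rescaling, 6 with the replicate block and 1 with a pseudocount of 0.1. No named gene changed direction while called, and 137 of 159 list medians moved by less than the spread between replicates.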
